A study of Homo sapiens with 31 samples.

Results

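The metallothioneins examined here were 8 genes taken by symbol, MT1A, MT1E, MT1F, MT1G, MT1H, MT1M, MT1X and MT2A, and 8 of 8 were found among the 17113 genes of the count table. The series held LoVo, LS1034, HT-29 and HCT 116, which are colorectal cancer lines labelled adenocarcinoma, and CCD 841 CoN, labelled normal colon. LS1034 came from the cecum and the others from the colon, per the labels. Every line had 3 unmixed libraries of total RNA (15 in all), and none was treated. The other 16 libraries were mixtures in which RNA of a cancer line made up 0.1%, 1%, 10% or 50% and RNA of CCD 841 CoN the rest, with 1 library per line and percentage. The mixtures were made to test whether the cancer share of a bulk RNA sample can be worked out from its transcripts.

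Metallothioneins are small cysteine-rich proteins that hold zinc, copper and cadmium ions in clusters of metal and thiolate. In humans the functional MT1 and MT2 genes lie in a cluster on the long arm of chromosome 16. Their transcription rises with zinc and cadmium through MTF1, a zinc-sensing factor that binds metal response elements near the start site, and also with glucocorticoids and oxidative stress. In intestinal cells they buffer zinc that enters through the transporters of the cell membrane.

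Library totals ran from 9688765 to 56741879 counts. A level is given as CPM, the gene's count scaled by its library's total, and the authors' counts came from reads of ribosome-depleted, stranded libraries. Labels did not say whether replicates were separate cultures, so p-values measure the spread between libraries only, which may be technical. The cells were kept in either of 2 media, and which line had which medium was not stated, so medium and line cannot be told apart. Markers of epithelium (7 genes, among them EPCAM and CDH1) summed to between 3181 and 25132 CPM in the cancer lines, against 240 to 315 CPM in CCD 841 CoN, where KRT20 had no count. Markers of mesenchymal cells (7 genes, among them COL1A1 and VIM) summed to 2.15 to 31.4 CPM in the cancer lines, against 24663 to 28980 CPM in CCD 841 CoN. A difference between a cancer line and CCD 841 CoN is thus also one between epithelial and mesenchymal transcript profiles, and these cannot be told apart. In bulk RNA, fewer expressing cells and less RNA per cell cannot be told apart either.

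The members are near copies of each other, which bears on every value. The coding sequences each had 61 codons before the stop, 20 of them for cysteine. Between pairs of members they were 88.5% to 95.1% identical (median 91.8% over 28 pairs), closest for MT1G and MT2A and farthest for MT1F and MT1X. The start of the coding sequence is shown for 7 members so that the likeness that read counting had to resolve can be seen. The lines give the first 60 coding bases, 5′ to 3′, from GENCODE 29 transcripts on chromosome 16, and capitals mark bases that differ from MT2A.
MT2A: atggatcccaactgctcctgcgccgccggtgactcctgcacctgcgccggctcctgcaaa
MT1E: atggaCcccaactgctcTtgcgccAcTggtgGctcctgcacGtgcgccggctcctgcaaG
MT1X: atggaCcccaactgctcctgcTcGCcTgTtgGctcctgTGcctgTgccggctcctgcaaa
MT1F: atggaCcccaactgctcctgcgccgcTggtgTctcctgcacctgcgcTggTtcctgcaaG
MT1G: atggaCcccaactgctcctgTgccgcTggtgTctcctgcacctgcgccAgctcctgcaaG
MT1M: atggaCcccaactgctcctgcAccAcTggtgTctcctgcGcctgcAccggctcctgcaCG
MT1H: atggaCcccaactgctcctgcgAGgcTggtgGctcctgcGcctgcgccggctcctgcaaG
Within these 60 bases the members shown differed from MT2A at 6 (MT1F and MT1G) to 10 (MT1X) positions. Over the members' annotated transcripts, windows of 50 bases that also occur in another metallothionein gene or pseudogene made up 3.27% (MT1F), 4.24% (MT2A), 5.76% (MT1A), 7.10% (MT1E), 8.28% (MT1X), 9.87% (MT1M), 15.8% (MT1H) and 16.5% (MT1G) of all windows. MT1X shared a further stretch with AC026461.1, a non-coding gene annotated over it on the same strand, which took its shared windows to 43.6%. How the authors' counting treated reads that match several genes is not given in the sources used here, so part of a member's count may belong to a relative.

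The summed level of the 8 members differed between the lines, and so did the member that made up most of it. The sum averaged 436 ± 330 CPM in LoVo, 128 ± 55.9 CPM in LS1034, 302 ± 69.5 CPM in HT-29 and 1438 ± 411 CPM in HCT 116, against 1051 ± 234 CPM in CCD 841 CoN (SD, n = 3 each). Without LoVo replicate 2 the LoVo sum averaged 248 CPM, which is below that of HT-29. MT2A, the most abundant isoform in many human tissues, took 20%, 50.8%, 30.8% and 60.1% of the summed counts in LoVo, LS1034, HT-29 and HCT 116, against 94.3% in CCD 841 CoN. MT1E took 39.5% in LoVo, 5.40% in LS1034, 58.8% in HT-29 and 35.5% in HCT 116, against 5.17% in CCD 841 CoN. Scaled by merged exon length, mean levels per kilobase were led by MT1E in LoVo (164 CPM per kb) and in HT-29 (171 CPM per kb), and by MT2A in LS1034 (66.3 CPM per kb), in HCT 116 (881 CPM per kb) and in CCD 841 CoN (1002 CPM per kb). MT1A came next after MT1E in LoVo, at 154 CPM per kb, and after MT2A in LS1034, at 42.7 CPM per kb.

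**Figure D1:**
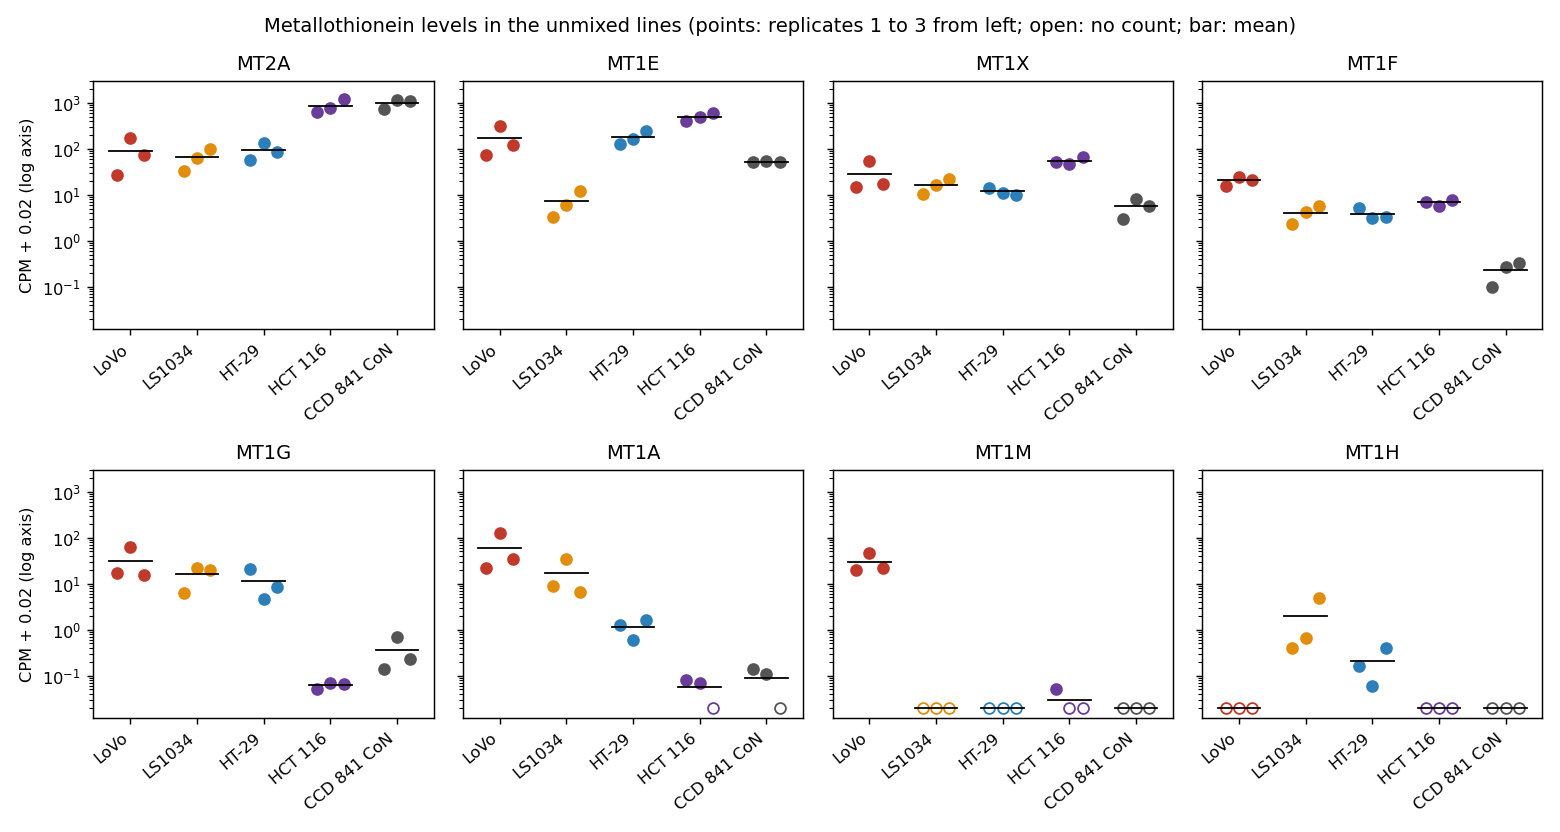
Levels of the 8 metallothioneins in the 15 unmixed libraries, as CPM with 0.02 added on a log axis. Points are replicates, open points libraries without a count and bars means. MT2A stood at 623 CPM or above in HCT 116 and CCD 841 CoN and at 174 CPM or below in the other lines, and MT1M and MT1H were nearly absent outside LoVo and outside LS1034 and HT-29.

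Of the 8 members, 7 passed the filter on low counts in the unmixed libraries (all but MT1H). A gene was called where its edgeR adjusted p lay under 0.05 and its log2 fold change was 1 or more in size. Over CCD 841 CoN, 6 members were called higher and 1 lower in LoVo, where 26.5% and 21.6% of 14452 tested genes were (48.0% in all). In LS1034, 4 were called higher and 2 lower (25.7% and 21.4% of all genes, 47.1% together), in HT-29 4 and 1 (24.7% and 20.9%, 45.7% together), and in HCT 116 3 and 1 (25.4% and 21.2%, 46.7% together). The median log2 fold change was 6.24 over 7 members in LoVo, and, over the 6 members with more than 3 counts in either group, 2.71 in LS1034, 2.46 in HT-29 and 1.23 in HCT 116. Over all tested genes it was 0.21 to 0.25. A member such as MT1M passed the filter through the line where it is high, so these counts describe the tested members and support no statement on the family. The 4 comparisons share the CCD 841 CoN libraries. For the mean of the 4 cancer lines, 4 members were called higher and 1 lower (24.8% and 22.3% of all genes, 47.1% together), among them MT1F higher (4.85 ± 0.56, edgeR adjusted p = 1.46e-06) and MT2A lower (-3.04 ± 0.35, edgeR adjusted p = 1.58e-06).

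MT2A, the single functional gene of the MT2 group, was lower in 3 of the 4 cancer lines than in CCD 841 CoN. It had 27.4, 174 and 73.6 CPM in LoVo, 33.0, 65.0 and 99.1 CPM in LS1034, 58.0, 137 and 86.8 CPM in HT-29 and 623, 793 and 1203 CPM in HCT 116, against 729, 1157 and 1092 CPM in CCD 841 CoN (replicates 1 to 3 in each list here and below). The libraries of LoVo, LS1034 and HT-29 lay below every HCT 116 and CCD 841 CoN library, and the last 2 lines overlapped. The ratio of mean CPM was 10.8-fold lower in LoVo (log2 fold change -3.82 ± 0.57 SE, edgeR adjusted p = 3.89e-05), 15.1-fold lower in LS1034 (-4.17 ± 0.58, edgeR adjusted p = 1.78e-05) and 10.6-fold lower in HT-29 (-3.66 ± 0.57, edgeR adjusted p = 5.58e-05). Without LoVo replicate 2, MT2A was 19.7-fold lower in LoVo (-4.68, edgeR adjusted p = 2.08e-05). HCT 116 averaged 873 ± 298 CPM, against 993 ± 231 CPM in CCD 841 CoN (-0.49 ± 0.51, edgeR adjusted p = 0.436). Among the cancer lines, LoVo, LS1034 and HT-29 were each called below HCT 116 and not called different from each other (edgeR adjusted p = 0.514 to 0.850).

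MT1E, an MT1 isoform, was above CCD 841 CoN in 3 cancer lines and below it in LS1034. It had 75.6, 322 and 120 CPM in LoVo, 3.21, 6.16 and 12.2 CPM in LS1034, 126, 165 and 249 CPM in HT-29 and 396, 506 and 609 CPM in HCT 116, against 51.7, 53.5 and 52.0 CPM in CCD 841 CoN. No cancer line overlapped CCD 841 CoN, whose 3 libraries spanned the narrowest range. The log2 fold change was 1.34 ± 0.48 in LoVo (edgeR adjusted p = 0.0271), -3.14 ± 0.52 in LS1034 (edgeR adjusted p = 9.74e-05), 1.54 ± 0.48 in HT-29 (edgeR adjusted p = 0.0136) and 2.95 ± 0.51 in HCT 116 (edgeR adjusted p = 1.55e-04). The LoVo call rested on replicate 2, without which the change was 0.53 (edgeR adjusted p = 0.346), and it also ended with any 1 CCD 841 CoN replicate left out (edgeR adjusted p = 0.0654 to 0.0703). The HT-29 call ended without HT-29 replicate 3 (1.19, edgeR adjusted p = 0.0651). Without LS1034 replicate 3 the change in LS1034 was -3.80 (edgeR adjusted p = 6.59e-05). Between the extremes, the level in LS1034 was 70.1-fold below that in HCT 116 (-6.09 ± 0.59, edgeR adjusted p = 9.98e-07), and 107-fold without LS1034 replicate 3. In order of mean level, HT-29 and LoVo (180 and 173 CPM) were the only neighbours not called different (edgeR adjusted p = 0.781).

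MT1X, an MT1 isoform found in many human cell types, was the member whose lines lay closest together. It had 14.9, 55.0 and 17.4 CPM in LoVo, 10.6, 16.6 and 22.3 CPM in LS1034, 14.5, 11.1 and 10.0 CPM in HT-29 and 51.7, 46.3 and 65.8 CPM in HCT 116, against 3.04, 8.06 and 5.68 CPM in CCD 841 CoN. Every cancer library exceeded every CCD 841 CoN library. It was called higher in LoVo (2.02 ± 0.48, edgeR adjusted p = 0.00216), LS1034 (1.31 ± 0.47, edgeR adjusted p = 0.0284) and HCT 116 (3.0 ± 0.50, edgeR adjusted p = 1.10e-04). HT-29 averaged 11.9 ± 2.33 CPM, against 5.59 ± 2.51 CPM in CCD 841 CoN, and was not called (0.86 ± 0.47, edgeR adjusted p = 0.139). In the order of means, from HCT 116 through LoVo, LS1034 and HT-29 to CCD 841 CoN, no neighbouring pair was called. Without LoVo replicate 2, LoVo was 1.17 above CCD 841 CoN on the log2 scale (edgeR adjusted p = 0.0313) and was called below HCT 116 (-1.75, edgeR adjusted p = 0.0101). The LS1034 call did not hold under DESeq2 size factors (1.18, edgeR adjusted p = 0.0531) or without LS1034 replicate 2 or 3 or CCD 841 CoN replicate 1 or 3 (edgeR adjusted p = 0.0688 to 0.129).

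MT1F, another MT1 isoform, was nearly absent from CCD 841 CoN and present in each cancer line. It had 15.8, 24.9 and 21.2 CPM in LoVo, 2.36, 4.21 and 5.67 CPM in LS1034, 5.22, 3.21 and 3.24 CPM in HT-29 and 7.15, 5.63 and 7.91 CPM in HCT 116, against 0.0812, 0.257 and 0.310 CPM in CCD 841 CoN, where the 3 libraries held 2, 3 and 3 counts. No cancer library came near the CCD 841 CoN levels. The ratio of mean CPM was 95.4-fold in LoVo (6.38 ± 0.62, edgeR adjusted p = 3.60e-07), 18.9-fold in LS1034 (4.11 ± 0.59, edgeR adjusted p = 2.39e-05), 18-fold in HT-29 (4.07 ± 0.59, edgeR adjusted p = 2.75e-05) and 31.9-fold in HCT 116 (4.84 ± 0.60, edgeR adjusted p = 5.87e-06). MT1F was also the steadiest member between LoVo replicates. LoVo exceeded LS1034 5.05-fold, HT-29 5.30-fold and HCT 116 2.99-fold, and all 3 differences were called (edgeR adjusted p = 0.00155, 0.00141 and 0.0198). The last call did not hold without LoVo replicate 2 or HCT 116 replicate 2 (edgeR adjusted p = 0.0557 and 0.0707).

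MT1G, an MT1 isoform, separated HCT 116 from the other cancer lines. It had 16.6, 61.7 and 15.1 CPM in LoVo, 6.36, 22.3 and 19.4 CPM in LS1034 and 20.4, 4.53 and 8.61 CPM in HT-29, against 0.122, 0.686 and 0.206 CPM in CCD 841 CoN. HCT 116 held 1 count in each library, against 3, 8 and 2 counts in CCD 841 CoN. LoVo, LS1034 and HT-29 overlapped each other and were higher than CCD 841 CoN by 92.1-fold (6.24 ± 0.87, edgeR adjusted p = 1.81e-05), 47.4-fold (5.39 ± 0.85, edgeR adjusted p = 6.07e-05) and 33.1-fold (4.91 ± 0.84, edgeR adjusted p = 1.38e-04). These sizes moved with single libraries and the calls held. Without LoVo replicate 2 the LoVo change was 46.9-fold (5.27, edgeR adjusted p = 8.07e-05), and without HT-29 replicate 1 that of HT-29 was 19.4-fold (4.05, edgeR adjusted p = 9.36e-04). Without CCD 841 CoN replicate 2, which leaves 5 counts in that line, they were 190-fold in LoVo, 97.7-fold in LS1034 and 68.1-fold in HT-29 (7.26, 6.41 and 5.94, edgeR adjusted p = 5.54e-05, 1.35e-04 and 2.52e-04). HCT 116 was called lower than CCD 841 CoN, 8.11-fold by mean CPM (counting interval 1.95 to 38.8, edgeR adjusted p = 0.0374). That call rests on 3 counts against 13. It did not hold with library size alone as scaling (-2.79, edgeR adjusted p = 0.0613), with replicate number as a block (-3.0, edgeR adjusted p = 0.0505), with any 1 HCT 116 replicate left out (edgeR adjusted p = 0.0687 to 0.105) or without CCD 841 CoN replicate 2 (-2.07, edgeR adjusted p = 0.227). LoVo exceeded HCT 116 747-fold (counting interval 269 to 3815, edgeR adjusted p = 5.70e-06), and 380-fold without LoVo replicate 2.

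MT1A, an MT1 isoform, was highest in LoVo and LS1034 and near absent from HCT 116 and CCD 841 CoN. It had 21.9, 126 and 34.6 CPM in LoVo, 8.93, 35.1 and 6.64 CPM in LS1034 and 1.22, 0.561 and 1.57 CPM in HT-29. HCT 116 held 2, 1 and 0 counts, against 3, 1 and 0 counts in CCD 841 CoN. The LoVo and LS1034 libraries overlapped, and both lay apart from HT-29, which lay apart from the last 2 lines. MT1A was called higher than in CCD 841 CoN in LoVo (880-fold by mean CPM, 9.02 ± 1.03, edgeR adjusted p = 2.34e-06), LS1034 (244-fold, 7.26 ± 1.01, edgeR adjusted p = 1.62e-05) and HT-29 (16.2-fold, 3.38 ± 1.06, edgeR adjusted p = 0.0139). These folds rest on 4 counts in CCD 841 CoN, and on 1 without its replicate 1, where the log2 changes were 9.83, 8.06 and 4.19 in LoVo, LS1034 and HT-29 (edgeR adjusted p = 4.11e-05, 2.11e-04 and 0.0361). Without LoVo replicate 2 the LoVo change was 408-fold (7.95, edgeR adjusted p = 8.00e-06), and without LS1034 replicate 2 that of LS1034 was 113-fold (6.13, edgeR adjusted p = 5.10e-05). HCT 116 and CCD 841 CoN were not called different (edgeR adjusted p = 0.499). LoVo stood 3.60-fold above LS1034 by mean CPM (1.76 ± 0.66, edgeR adjusted p = 0.0544). With replicate number as a block, a pairing that the cancer lines shared, that difference was called (1.78, edgeR adjusted p = 0.0203). It was also called with DESeq2 (DESeq2 adjusted p = 0.0409), with no filter on low counts (edgeR adjusted p = 0.0489), without LoVo replicate 1 (edgeR adjusted p = 0.0336) and without LS1034 replicate 2 (2.88, edgeR adjusted p = 0.00795). Without LoVo replicate 2 it was 0.72 (edgeR adjusted p = 0.463).

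The last 2 members were each found in few lines. MT1M, an MT1 isoform, had 19.7, 46.9 and 22.2 CPM in LoVo, 1 count in all of HCT 116 and none in LS1034, HT-29 or CCD 841 CoN. At 3 counts over a group, the absence of counts allows up to 0.0419 CPM in LS1034, 0.0465 CPM in HT-29 and 0.0652 CPM in CCD 841 CoN. MT1M was thus at least 708-fold higher in LoVo than in LS1034, at least 636.5-fold higher than in HT-29 and at least 454-fold higher than in CCD 841 CoN (edgeR adjusted p = 1.35e-05, 1.81e-05 and 7.23e-06). With 1 library left out the lowest of these bounds were 369, 353 and 211-fold. MT1H, a further MT1 isoform, held 13, 15 and 66 counts in LS1034 and 4, 1 and 4 counts in HT-29, against none in LoVo, HCT 116 or CCD 841 CoN. Its level was 0.380, 0.625 and 4.93 CPM in LS1034, so 1 library carried most of the signal. MT1H did not pass the filter and was not tested. By mean CPM it was at least 30.3-fold higher in LS1034 and at least 2.81-fold higher in HT-29 than in CCD 841 CoN. Without LS1034 replicate 3 the bound for LS1034 was 7.70-fold, and without CCD 841 CoN replicate 1 it was 14.1-fold. For HT-29 the bound was 1.38-fold without HT-29 replicate 3 and 1.30-fold without CCD 841 CoN replicate 1. LoVo, where MT1M was highest, held no MT1H count, and LS1034, where MT1H was highest, held no MT1M count.

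**Figure D2:**
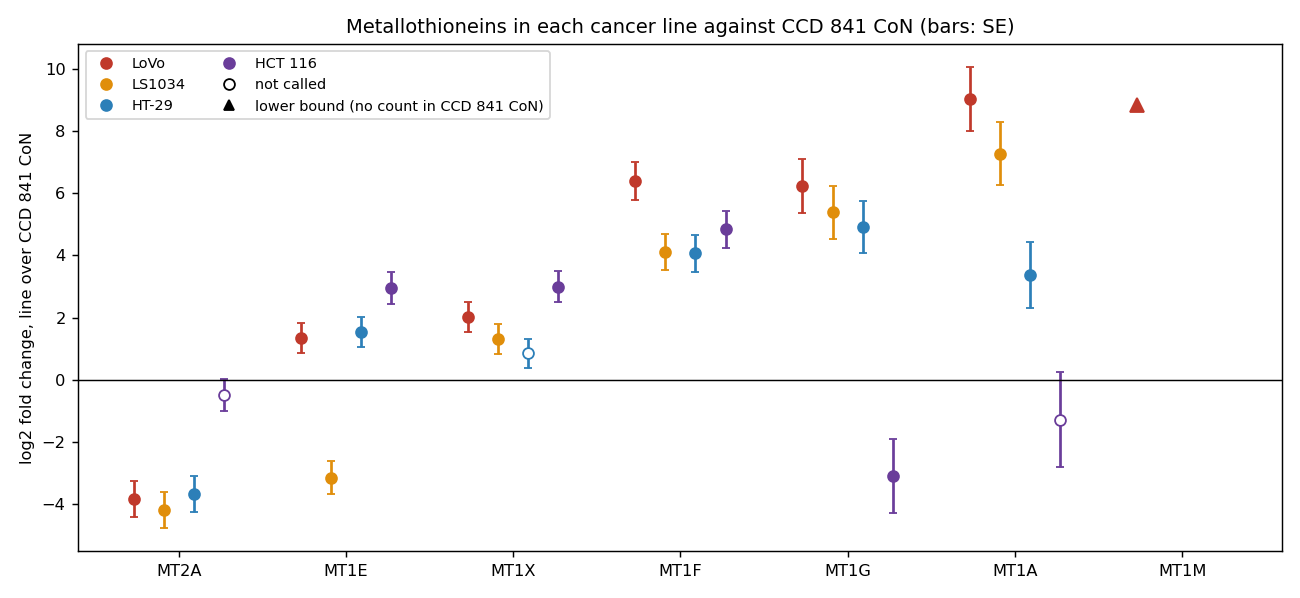
Log2 fold change of each tested metallothionein in each cancer line over CCD 841 CoN, with standard errors. Filled points were called, open points were not, and the triangle is a lower bound. MT2A lies at -3.66 or below in LoVo, LS1034 and HT-29, MT1F at 4.07 or above in all 4 lines, and MT1E and MT1G lie on both sides of 0.

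Between cancer lines, HCT 116 stood apart from the other 3 by its higher MT2A and MT1E and its lower MT1A and MT1G. LoVo over HCT 116 had 4 members called higher and 2 lower of 7, where 11.9% of all genes were higher and 10.2% lower (22.1% together). LoVo had 3 called higher over LS1034 and none lower (13.2% and 12.8% of genes, 26.0% together), and 3 higher over HT-29 and none lower (13.7% and 13.4%, 27.2% together). LS1034 over HT-29 had 1 higher and 1 lower (11.4% and 11.2%, 22.6% together). Over HCT 116, LS1034 had 2 higher and 3 lower (16.6% and 16.3%, 32.9% together), and HT-29 had 2 higher and 3 lower (15.2% and 15.4%, 30.6% together). The members called lower in a line than in HCT 116 were MT2A and MT1E in LoVo and MT2A, MT1E and MT1X in LS1034 and HT-29. The MT1E calls of LoVo and HT-29 against HCT 116 (-1.61 and -1.41, edgeR adjusted p = 0.0216 and 0.0313) each ended when any 1 of 4 libraries was left out, for LoVo replicates 1 and 3 of LoVo and 2 and 3 of HCT 116 (edgeR adjusted p = 0.0529 to 0.106), and for HT-29 replicates 1 and 2 of HT-29 and 2 and 3 of HCT 116 (edgeR adjusted p = 0.0564 to 0.123). The MT1X call of LS1034 (-1.69, edgeR adjusted p = 0.00928) ended without LS1034 replicate 1 (edgeR adjusted p = 0.0564). Those called higher than in HCT 116 were MT1A and MT1G in all 3 lines, and MT1F and MT1M in LoVo. MT1E and MT1A separated LS1034 from HT-29, MT1E at 7.18 ± 4.56 CPM in LS1034 and 180 ± 63.2 CPM in HT-29 (-4.68 ± 0.55, edgeR adjusted p = 1.24e-05), and MT1A at 16.9 ± 15.8 CPM in LS1034 and 1.12 ± 0.514 CPM in HT-29 (3.88 ± 0.75, edgeR adjusted p = 0.00113). Without LS1034 replicate 2 the MT1A difference was 2.85 (edgeR adjusted p = 0.00676).

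Members also varied between replicates of a line. Each ratio here is a library's CPM over the mean of the other 2 replicates of its line, with 0.5 CPM added to both. In LoVo, replicate 2 was the highest in 7 of the 7 tested members, each at a mean of 1 CPM or more. Its median log2 excess over the mean of the other 2 replicates was 1.74 for those members and 0.07 over 11786 genes, of which 36.8% were highest in that library. The excess was 4.41-fold for MT1A, 3.43-fold for MT2A, 3.28-fold for MT1E and 1.34-fold for MT1F. In HCT 116, replicate 3 was highest in 4 of 4 members (31.4% of all genes), MT2A by 1.70-fold. LS1034 replicate 1 was highest in 0 of 6 tested members (36.1% of all genes) and replicate 3 in 4 (27% of all genes). MT1A and MT1G were highest in replicate 2 (36.8% of all genes). Members of LS1034 replicate 3 lay on both sides of 1, MT1A at 0.317 and MT1E and MT2A at 2.44 and 2.01. In HT-29, replicates 1, 2 and 3 were highest in 3, 1 and 2 of 6 members, beside 30.8%, 36% and 33.3% of all genes. HT-29 replicate 1 had MT1G at 2.96 and MT1F at 1.54 beside MT2A at 0.521 and MT1E at 0.607, and replicate 2 had MT2A at 1.88 beside MT1G at 0.335. In CCD 841 CoN, replicate 1 had the lowest MT2A and MT1X, at ratios of 0.648 and 0.481. Over the 15 libraries, the deviations from line means, on log2(CPM + 1), correlated positively in 21 of 21 pairs of tested members (Pearson r 0.292 to 0.877, median 0.650). MT1M had 1 count outside LoVo in these libraries, so its pairs rest on the LoVo replicates. MT1A and MT1G held few counts in HCT 116 and CCD 841 CoN. Pairs of other genes were not set beside these, so the coefficients show no trait of the family. They share libraries, depth and near-identical sequences, and are a description.

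**Figure D3:**
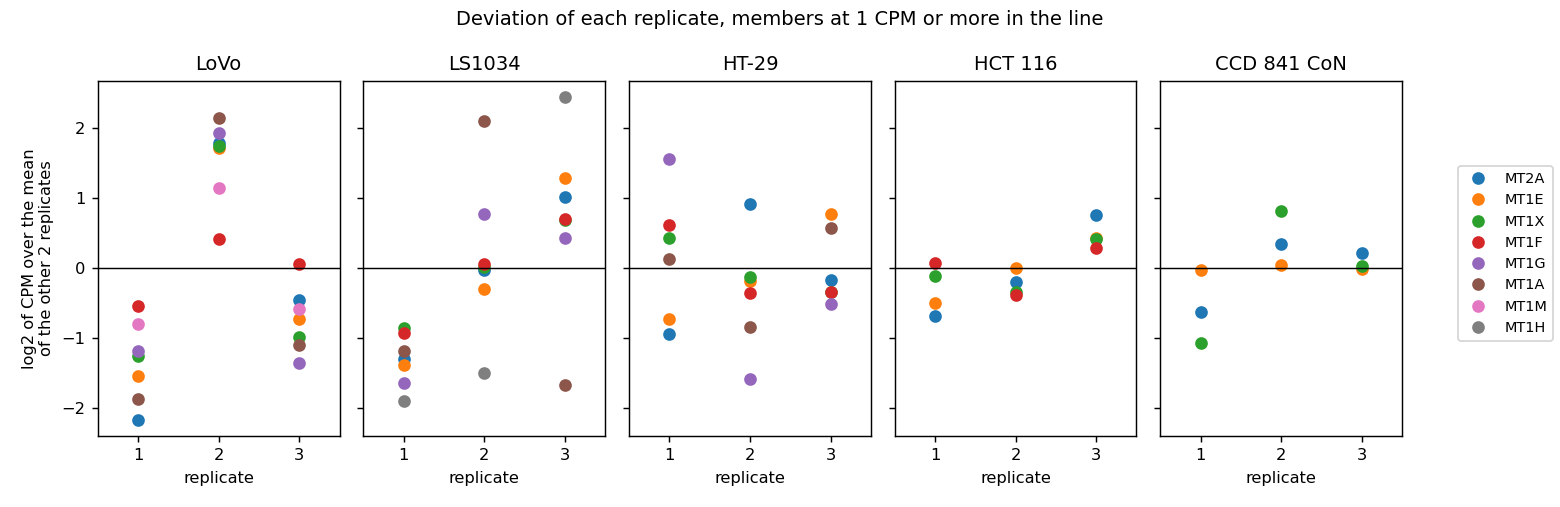
Log2 of a replicate's CPM over the mean of the other 2 replicates of its line, with 0.5 CPM added to both, for members averaging at least 1 CPM. In LoVo the points of replicate 2 lie at 0.42 or above and those of replicate 1 at -0.53 or below. In HCT 116 the 4 members lie between -0.68 and 0.76.

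The promoters of 3 members were in the RefSeq table used here, and are shown for the elements through which metals act on these genes. The sequences are the 250 bases before the start site, GRCh38.p14, plus strand, 5′ to 3′. Capitals mark matches on either strand to the metal response element core, written as TGCACNC or TGCGCNC. Neighbouring matches may overlap.
MT2A, chr16:56608334-56608583: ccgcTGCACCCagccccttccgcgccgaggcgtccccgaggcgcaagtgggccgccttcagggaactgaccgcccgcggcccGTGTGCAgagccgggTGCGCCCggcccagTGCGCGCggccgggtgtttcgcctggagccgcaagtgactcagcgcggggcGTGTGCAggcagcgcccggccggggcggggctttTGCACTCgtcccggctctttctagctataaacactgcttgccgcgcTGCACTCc
MT1X, chr16:56682220-56682469: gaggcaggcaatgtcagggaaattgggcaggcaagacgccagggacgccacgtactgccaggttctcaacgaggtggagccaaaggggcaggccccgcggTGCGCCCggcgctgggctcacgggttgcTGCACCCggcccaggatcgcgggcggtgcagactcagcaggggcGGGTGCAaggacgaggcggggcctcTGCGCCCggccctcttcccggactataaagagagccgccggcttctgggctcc
MT1H, chr16:56669564-56669813: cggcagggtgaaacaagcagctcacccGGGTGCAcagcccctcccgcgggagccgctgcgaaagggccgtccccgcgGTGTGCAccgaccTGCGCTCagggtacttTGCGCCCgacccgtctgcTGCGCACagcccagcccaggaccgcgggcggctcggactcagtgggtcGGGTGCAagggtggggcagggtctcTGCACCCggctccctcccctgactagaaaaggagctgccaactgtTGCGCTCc
The window held 7 matches for MT2A, 4 for MT1X and 8 for MT1H. Of 35116 promoters of the same length, 24.8% held at least 1 match, 0.370% held as many as MT1X or more, 0.0313% as many as MT2A or more and 0.0171% as many as MT1H or more. MT1H had the most matches and the lowest level of the 3, at no count in LoVo, HCT 116 and CCD 841 CoN. A match is a description of letters, and binding was not measured.

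Genes that act with metallothioneins were read from lists. MTF1, the metal-sensing activator of the family, averaged 24.9 ± 6.09 CPM in LoVo, 18.9 ± 3.22 CPM in LS1034, 31.2 ± 2.20 CPM in HT-29 and 34.0 ± 5.18 CPM in HCT 116, against 18.6 ± 2.65 CPM in CCD 841 CoN. It was called in no cancer line over CCD 841 CoN (log2 fold change -0.26 to 0.55, edgeR adjusted p = 0.0849 to 0.819). SLC30A1, a zinc exporter that is also a target of MTF1, was not called over CCD 841 CoN either (-0.51 to 0.77, edgeR adjusted p = 0.0729 to 0.732). Between cancer lines, SLC30A1 was called higher in LoVo and in LS1034 than in HCT 116 (1.28 and 1.10, edgeR adjusted p = 0.0141 and 0.0216). No other pair of cancer lines was called for it. The LoVo libraries had 251, 129 and 143 CPM of SLC30A1, so the library with the highest metallothioneins, replicate 2, had the lowest SLC30A1. The library with the highest summed members also had the lowest SLC30A1 in HT-29, HCT 116 and CCD 841 CoN (replicates 3, 3 and 2, at 71, 48 and 73 CPM). In LS1034 it did not (replicate 3, at 152 CPM). The other metallothionein genes were low. MT3, an isoform best known from brain, held 7, 40 and 0 counts in LoVo, 8, 12 and 2 in LS1034 and 18, 14 and 6 in HT-29, and none in HCT 116 or CCD 841 CoN. On these few counts it was called higher in LoVo, LS1034 and HT-29 than in CCD 841 CoN (edgeR adjusted p = 0.020, 0.0466 and 0.0196). It was also called higher in these lines than in HCT 116 (edgeR adjusted p = 0.0172, 0.0262 and 0.0118). MT1B held 10, 15 and 20 counts in HCT 116 and at most 4 in any other line, and MT4 and MT1HL1 had at most 12 and 4 counts in a line.

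For the mean of the 4 cancer lines over CCD 841 CoN, 5 of 21 tested zinc transporters were called higher and 3 lower, where 24.8% of all tested genes were called higher and 22.3% lower (47.1% together; median log2 fold change 0.24, against 0.22 over all genes). SLC39A4, the intestinal zinc importer, averaged 71.4 ± 43.0 CPM in the cancer libraries, against 1 count in CCD 841 CoN, and SLC39A14, an importer of zinc and manganese, 289 ± 108 CPM, against 83.7 ± 3.75 CPM. SLC39A13, which moves zinc within the secretory pathway, averaged 33.3 ± 12.1 CPM, against 248 ± 15.3 CPM in CCD 841 CoN (edgeR adjusted p = 3.67e-09). Of 15 copper genes, 3 were called higher and 5 lower, beside 24.8% and 22.3% of all genes (median -0.49), with the copper exporter ATP7B higher (12.7 ± 5.99 CPM, against 1.95 ± 1.14 CPM in CCD 841 CoN) and the copper chaperone ATOX1 lower (65.4 ± 30.6 CPM, against 119 ± 19.0 CPM). Of 12 heat shock and oxidative stress genes that cadmium and zinc induce, 1 was called higher and 5 lower, beside 24.8% and 22.3% of all genes (median -0.56). The small heat shock protein gene HSPB1 averaged 217 ± 316 CPM in the cancer libraries, against 2229 ± 179 CPM in CCD 841 CoN, and GCLC, an enzyme of glutathione synthesis, 111 ± 47.8 CPM, against 28.3 ± 4.86 CPM.

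Of 10 genes of the glucocorticoid response, 4 were called higher and 5 lower, beside 24.8% and 22.3% of all genes (median -0.52). NR3C1, the glucocorticoid receptor, averaged 49.7 ± 4.53 CPM in LoVo, 0.240 ± 0.228 CPM in LS1034, 0.938 ± 1.51 CPM in HT-29 and 24.7 ± 2.77 CPM in HCT 116, against 98.3 ± 4.39 CPM in CCD 841 CoN. The receptor's lowest levels thus fell in LS1034 and HT-29. Its target FKBP5 averaged 61.6 ± 24.7 CPM in LoVo, 73.1 ± 31 CPM in LS1034 and 92.7 ± 24.6 CPM in HT-29. FKBP5 was highest in HCT 116, at 269 ± 60.4 CPM, against 4.94 ± 2.19 CPM in CCD 841 CoN. The order of the lines by FKBP5 thus differed from that by NR3C1. Other genes that glucocorticoids induce lay on both sides of CCD 841 CoN in HCT 116. PER1, a clock gene, averaged 24.6 ± 14.4 CPM in HCT 116, against 2.21 ± 0.628 CPM in CCD 841 CoN. DUSP1, a phosphatase of MAP kinases, averaged 12.3 ± 1.79 CPM there, against 211 ± 1.97 CPM in CCD 841 CoN. SGK1, a kinase that acts on ion transport, averaged 4.46 ± 1.67 CPM, against 47.9 ± 4.88 CPM, and TSC22D3, also called GILZ, 17.2 ± 9.23 CPM, against 63.7 ± 8.39 CPM. For the mean of the 4 cancer lines DUSP1, SGK1 and TSC22D3 were called lower (-3.24, -2.44 and -1.24, edgeR adjusted p = 3.78e-05, 2.58e-04 and 0.0326). Not every line was that low. In HT-29 they averaged 128 ± 167, 71 ± 32.9 and 54.9 ± 19.6 CPM, so SGK1 lay above CCD 841 CoN there. ERRFI1, also listed, was called higher (2.83, edgeR adjusted p = 8.47e-04), at 605 ± 123 CPM in HCT 116, against 25.7 ± 2.56 CPM in CCD 841 CoN. Of 8 tested genes that flank the metallothionein cluster, 1 was called higher and 2 lower, beside 24.8% and 22.3% of all genes (median 0.33). NUDT21, an mRNA 3′ processing factor, averaged 260 ± 89.8 CPM in the cancer libraries, against 62.8 ± 3.85 CPM in CCD 841 CoN. Whether any of these genes has a part in the metallothionein levels was not tested.

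The genes whose pattern was most like that of a member were read by Pearson correlation of log2(CPM + 1) over the 15 unmixed libraries, among 11375 genes. For MT2A they were RUNX3 (r = 0.951), TMEM200B (0.95) and FBXO17 (0.949), with RUNX3 at 0.0934 CPM in LoVo, 0.0487 CPM in LS1034, 0.495 CPM in HT-29 and 23.1 CPM in HCT 116, against 23.1 CPM in CCD 841 CoN. For MT1E they were JADE1 (0.956), PLEKHH3 (0.941) and PKN3 (0.936). For MT1F they were TMCC3 (0.961), HOXB13 (0.957) and BTF3 (0.956), and for MT1X CADM4 (0.931), EXO1 (0.918) and HNRNPC (0.915). For MT1G they included IL1R2 (0.944) and FOXA2 (0.943). FOXA2, a transcription factor of gut and liver, stood at 41.9, 30.9, 18.6 and 0.0404 CPM in LoVo, LS1034, HT-29 and HCT 116, against no count in CCD 841 CoN. For MT1A they were PCP4 (0.965), PTPRO (0.961) and ALPP (0.960), and for MT1M NPTX2 (0.994), C2CD4A (0.991) and SPINK6 (0.991), each with most of its level in LoVo. With 5 lines of 3 libraries, such coefficients rest mainly on the 5 line means.

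The mixtures showed how each member followed the share of cancer RNA. Each point is 1 library, so intervals cover counting error only. A computed level is the label share of the cancer line's mean plus the rest of the CCD 841 CoN mean. Shares were also estimated from 523 to 719 genes marking each cancer line. At label 10% and 50% they were 10.3% and 48.6% for LoVo and 13.6% and 56.2% for LS1034. They were 15.3% and 57.2% for HT-29 and 11.3% and 51.3% for HCT 116. With these shares the 50% ratio of MT2A was 0.786 for LS1034 and 0.762 for HT-29, against 0.701 and 0.671. That of MT1A for LS1034 moved the other way, from 0.527 to 0.469. Ratios below use the label shares unless stated. MT2A stood at 696, 722, 636 and 743 CPM in the 0.1% mixtures of LoVo, LS1034, HT-29 and HCT 116, which is 0.642 to 0.748 times the computed level. CCD 841 CoN replicate 1, at 729 CPM, was the CCD 841 CoN library nearest to these values. With that replicate alone as the normal level the ratios were 0.874 to 1.02. Replicate 1 was singled out for its nearness to these values. With it, MT2A at 50% moved towards 1 for LoVo, LS1034 and HT-29 and away from 1 for HCT 116, from 1.07 to 1.24. Median ratios by line, described below, moved towards 1 for LoVo (0.709 to 0.782) and HT-29 (0.945 to 0.974). They moved away from 1 for LS1034 (1.01 to 1.19) and HCT 116 (1.07 to 1.12). Whether the mixtures were made from RNA of replicate 1 was not stated. In the 50% mixtures MT2A stood at 435, 371 and 364 CPM for LoVo, LS1034 and HT-29 and at 994 CPM for HCT 116, below their 0.1% values in the first 3 series and above it in that of HCT 116.

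MT1E followed the sign of its unmixed difference in each series. From 0.1% to 50% it was 43.2, 55.6, 56.1 and 79.4 CPM in the LoVo series, 48.6, 50.5, 43.4 and 29.6 CPM in that of LS1034, 42.0, 53.7, 75.4 and 152 CPM in that of HT-29 and 50.6, 59.0, 108 and 351 CPM in that of HCT 116. The 50% values were 0.706, 0.994, 1.31 and 1.26 times the computed ones. LS1034 was the series whose 50% value lay below its 0.1% value.

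By line, the LoVo series had the lowest median ratio to the computed levels. At 50%, MT1A stood at 13.1 CPM (95% Poisson interval 11.5 to 14.7), against a computed 30.5 CPM, MT1X at 8.67 CPM against 17.4 CPM and MT1G at 8.43 CPM against 15.7 CPM. Their ratios were 0.428, 0.5 and 0.536, and MT1F, which varied least between LoVo replicates, had 0.967. Some ratios of other series lay as low or lower, MT1A in the LS1034 series at 0.406 at 10% (0.470 for LoVo) and 0.527 at 50%, and MT2A at 50% at 0.701 for LS1034 and 0.671 for HT-29 (0.802 for LoVo). MT1X also lay below its computed level in the HT-29 series (0.620 at 10% and 0.787 at 50%). It was at 0.790 and 1.26 in that of HCT 116, and at 1.03 and 1.39 in that of LS1034. MT1F lay above its computed level in the LS1034 series, at 2.14 at 10% and 1.62 at 50%. With the estimated shares these ratios were 1.74 and 1.46. With LoVo replicate 2 left out of the computed level, the ratios at 50% were 0.923 for MT1A, 0.798 for MT1X, 1.04 for MT1G and 1.08 for MT1F. The median over 14 values of the LoVo series at 10% and 50% then moved to 0.994, where it had been 0.709 with all 3 replicates. That alternative was chosen after the values were seen. MT1M, the member found in LoVo, had 1, 4, 143 and 219 counts from 0.1% to 50% of LoVo RNA (0.0227, 0.0826, 2.52 and 10.6 CPM).

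Some counts also exceeded the computed ones where few or almost none were computed. MT1M had 3 counts in the HT-29 mixture at 1%, 5 counts in the HCT 116 mixture at 1% and 3 counts in the LS1034 mixture at 10%, whereas the unmixed libraries of these lines and CCD 841 CoN held 1 count in all. MT1H in the LS1034 series had no count at 0.1% and 1%, 39 counts at 10% (0.730 CPM, 0.519 to 0.998) and 29 at 50% (1.80 CPM, 1.21 to 2.58), above the computed 0.198 and 0.989 CPM. The computed levels amount to 10.6 and 15.9 counts. With the estimated shares the computed levels were 0.269 and 1.11 CPM. Both rest on an LS1034 mean carried by replicate 3, at 4.93 CPM against 0.380 and 0.625 CPM in replicates 1 and 2. Over 43 values of a member in a 10% or 50% mixture with at least 20 counts computed, the median ratio was 0.871, with 32 within 1.5-fold and 37 within 2-fold. By line it was 0.709 for LoVo, 1.01 for LS1034, 0.945 for HT-29 and 1.07 for HCT 116.

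**Figure D4:**
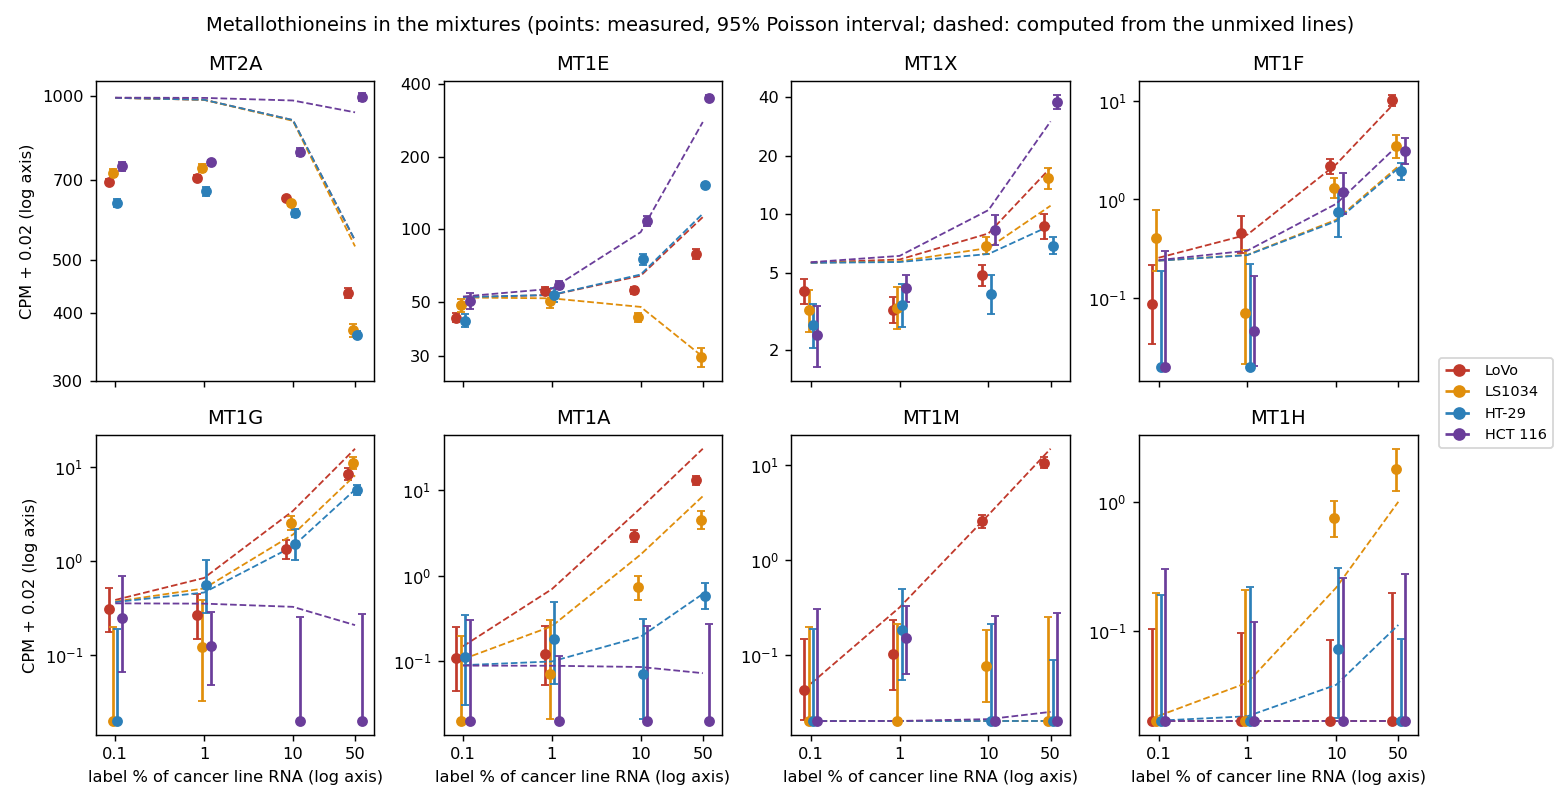
Level of each metallothionein against the label percentage of cancer RNA, as CPM with 0.02 added, both axes logarithmic. Points are single libraries with 95% Poisson intervals, and dashed lines are levels computed from the unmixed lines. MT2A lies below its lines at 0.1% to 10% in every series, and MT1A, MT1G and MT1X lie below theirs in the LoVo series.

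Over the 4 series together, 50% mixtures were set against 0.1% mixtures, with cancer line as a term and the adjusted p alone as the rule. Of the 6 members that passed the filter, 5 were called higher and 1 lower, where 30.1% and 24.1% of 13212 genes were (54.2% in all). MT1A, MT1F and MT1G held 6, 11 and 16 counts over the 0.1% mixtures, against 374, 415 and 667 over the 50% mixtures. They passed the filter through the mixtures where they are high, so these counts of calls describe the tested members and support no statement on the family. MT2A was lower (541 ± 304 CPM at 50%, against 699 ± 46.1 CPM at 0.1%, SD, n = 4 each, log2 fold change -0.58 ± 0.19, edgeR adjusted p = 0.0162). That call ended without the cancer line term (-0.49, edgeR adjusted p = 0.0934) and without the LoVo, LS1034 or HT-29 mixtures (-0.51, -0.45 and -0.50, edgeR adjusted p = 0.0978, 0.0834 and 0.0753). MT1F (5.27 ± 0.94, edgeR adjusted p = 3.27e-04), MT1X (2.08 ± 0.38, edgeR adjusted p = 4.43e-04), MT1A (5.91 ± 1.35, edgeR adjusted p = 0.00353), MT1G (4.95 ± 1.43, edgeR adjusted p = 0.00950) and MT1E (1.27 ± 0.42, edgeR adjusted p = 0.0193) were higher. The members' series did not all go one way, MT2A being higher at 50% for HCT 116 and MT1E lower at 50% for LS1034. In the HCT 116 series MT1A had no count at any percentage, and MT1G had 3 counts at 0.1% and none at 50%. At 10%, 1 member was called, MT1F higher (3.71 ± 0.92, edgeR adjusted p = 0.0241), where 6.21% of genes were higher and 1.18% lower (7.39% together). It had 2.15, 1.29, 0.729 and 1.17 CPM in the 10% mixtures of LoVo, LS1034, HT-29 and HCT 116, against 0.0680, 0.387, 0 and 0 CPM at 0.1%. That call did not hold without the cancer line term or without the LoVo, HT-29 or HCT 116 mixtures (edgeR adjusted p = 0.104 to 0.117), and it was 5.88 without the LS1034 mixtures (edgeR adjusted p = 0.00720). Of the calls at 50%, those of MT1F and MT1X alone held with the mixtures of any 1 line left out, MT1F at 7.43 without LS1034 (edgeR adjusted p = 1.77e-04) and MT1X at 1.46 without HCT 116 (edgeR adjusted p = 0.00292). MT1E was 0.68 without the HCT 116 mixtures and 1.04 without those of HT-29 (edgeR adjusted p = 0.173 and 0.125). MT1A was 4.76 without those of LoVo (edgeR adjusted p = 0.0734), and MT1G lost its call without those of LoVo, LS1034 or HT-29 (5.60, 3.93 and 4.38, edgeR adjusted p = 0.0536, 0.0769 and 0.0641).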

How the data were processed

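RNA-seq counts per gene for 31 libraries were analysed as deposited. Reads were aligned with STAR to hg19 and counted with featureCounts, per the submitters' processing notes. Versions, strand setting and the treatment of reads that match several genes are not given in the sources used here. Libraries were ribosome-depleted and stranded, per the labels' protocols. No sample column was left unused.

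Counts were tested with edgeR 4.0.16 in R 4.3.3 (quasi-likelihood, TMM scaling, filterByExpr with a minimum count of 10, Benjamini-Hochberg adjustment over all tested genes). One fit held the 15 unmixed libraries and another the 16 mixtures, with cancer line as a term. Calls between unmixed groups needed an adjusted p under 0.05 with a log2 fold change of 1 or more in size, those between mixtures the adjusted p alone. Folds are ratios of mean CPM, and against a group without counts they are bounds at 3 counts over the group. Intervals are 95% Poisson intervals and cover counting error only. The fit was tested on simulated data.

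The members and lists were chosen with earlier results of these data known. Named genes were all members, MTF1 and the family's other genes, the 3 genes most like each tested member (mean of at least 10 CPM in a line), and up to 4 called genes per list and direction by size of change. Some items that this rule selects are not reported here. Replicate numbers come from sample titles. Same-numbered libraries deviated together between cancer lines (18 correlations of deviations, 0.140 to 0.464) but not with CCD 841 CoN (12 correlations, -0.0365 to 0.0233), so the numbers were taken to pair the cancer lines only. The main fit held no replicate term, so its p-values between cancer lines ignore this pairing. The replicate block was run as an alternative. Alternatives were DESeq2 1.42.0, other scalings, no filter, a replicate block, fits on fewer libraries and left-out libraries.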

Additional observations from a re-analysis of the deposited data

Results flagged for a closer look

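In the mixtures with 1% cancer RNA, MT1F in the LoVo mixture (0.434 CPM) lay far from the other 3 libraries, which had 0.0514 CPM or less. The LoVo value was 1.03 times the 0.420 CPM computed from the unmixed lines. The other 3 lay below their computed levels, LS1034 at 0.0514 against 0.255 CPM, HT-29 at 0 against 0.253 CPM and HCT 116 at 0.026 against 0.283 CPM. They held 1, 0 and 1 counts. Chance flags about 1 in 20 groups. For 7 members the change against CCD 841 CoN differed between 2 cancer lines, and the pair with the largest tested difference is given for each, as a log2 difference. It was 10.3 for MT1A, 9.32 for MT1G, both LoVo over HCT 116, and 12.3 for MT1M, LoVo over LS1034, where LS1034 had no count and the fitted value is no measure of size. It was 2.30 for MT1F, LoVo over HT-29. It was -6.09 for MT1E and -3.68 for MT2A, both LS1034 over HCT 116, and -2.14 for MT1X, HT-29 over HCT 116.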

How the results depend on the processing

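Of 82 results for a member with a fold change, 58 were called. Of these, 45 kept their call under every alternative run, 13 lost it under at least 1, and 4 lost it under an alternative other than leaving out libraries. No called result turned its direction, and 5 uncalled ones were called under an alternative. Library size alone as scaling moved the median log2 fold change of all genes for the mean of the 4 cancer lines to 0.51, against 0.22, and the calls to 4534 higher and 2735 lower, against 3584 and 3222. DESeq2 size factors gave 3176 and 3545. Under each of these scalings 4 members were called higher and 1 lower.

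The members called for LoVo over LS1034 numbered 5 with no filter and with DESeq2, against 3, and up to 5 with a library left out. Between 10% and 0.1% mixtures, DESeq2 called 2 members and 1608 genes, against 1 and 976 by edgeR. Without the cancer line term edgeR called 0 of 6 members (3 at an unadjusted p under 0.05) and 502 genes. Leaving out the mixtures of 1 line gave 0 to 1 members (2 to 4 at an unadjusted p under 0.05) and 556 to 725 genes. Between 50% and 0.1% mixtures it gave 3 to 5 members, against 6.

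Directions turned for 6 uncalled differences when 1 library was left out. LoVo over LS1034 ranged from -0.44 to 0.83 for MT2A, -0.050 to 1.18 for MT1G and -0.074 to 1.03 for MT1X, each lowest without LoVo replicate 2. LoVo over HT-29 ranged from -0.92 to 0.28 for MT2A and from -0.92 to 0.16 for MT1E, each lowest without LoVo replicate 2. LS1034 over HT-29 ranged from -0.30 to 0.38 for MT1F. The cause was not tested.

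With the replicate block, MT1F in LS1034 over HT-29 was -0.042, and -0.033 with the cancer lines alone in the fit, an alternative added after the data were seen. The block called MT1A in LoVo over LS1034 (1.78, edgeR adjusted p = 0.0203, and 0.0210 with the cancer lines alone), ended the MT1G call of HCT 116 over CCD 841 CoN (-3.0, edgeR adjusted p = 0.0505) and changed no other member's call. The median ratio of mixture to computed level was 0.822 to 0.993 across its alternatives, against 0.871. Members with few counts are limited by depth, MT1H most.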
